A study of Rattus norvegicus with 8 samples.

Results

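The genes described here build the extracellular matrix of the heart: collagen chains, the enzymes that hydroxylate and crosslink them, elastic fibre proteins, small proteoglycans and matrix glycoproteins. The set holds 47 genes chosen by name and role, with earlier results of these data known. Of these, 43 had at least 1 probe set that names that gene alone, out of 17309 genes measured in this way. The 4 members without a value were Lamb1, Fbln5, Tnc and Thbs1. For Fbln5 the platform annotation lists 35 probe sets, all shared with another gene, and they were not used.

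Collagens are secreted as chains of 3 per molecule, in which prolines and lysines are hydroxylated inside the cell before the chains fold. Outside the cell, lysyl oxidases join the molecules into fibres. In the heart, fibroblasts make most of the fibrillar collagen, while vessels, muscle cells and fibroblasts share in making the basement membrane. A stiffer collagen network is a well-known feature of hearts under long-lasting pressure load.

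RNA came from the left ventricular myocardium of male rats at 2 months of age on standard chow, with 4 animals of each of 2 strains and 1 array per animal. SHR is the spontaneously hypertensive rat. PD5 is a minimal congenic strain of SHR. It shares nearly all of its genome with SHR and differs in a small introduced segment. The labels state neither donor nor extent of that segment. They give no blood pressure for either strain, and no other strain is among the samples. How much pressure load these hearts bore is therefore not known here. The animals were PD5 207, 209, 210 and 212 and SHR 213, 215, 218 and 219, and the labels give no litter or batch. Myocardium was whole tissue, so fewer cells of a type and less RNA per cell cannot be told apart. Values are log2 array values averaged over the probe sets of a gene, and a difference is PD5 minus SHR. Levels of different genes are not comparable on this scale, because each probe set binds with its own strength.

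No member of the set differed between the strains beyond the threshold. In limma, 0 of 43 members passed an adjusted p of 0.05 over all genes, where 0.052% of all genes did (9 of 17309), and 5 had an unadjusted p under 0.05. Those 5 were Postn, higher in PD5, and P4ha1, Col8a1, Col4a3 and Col6a3, lower in PD5. Of all genes, 5.68% were at that level: 2.77% of all genes on the higher side and 2.91% on the lower side. The 4 PD5 animals lay wholly on one side of the 4 SHR animals in 3 members, Postn above and P4ha1 and Eln below, where 3.49% of all genes had such separate groups, 1.59% above and 1.89% below. Without one array, the count of separate members was 6 without PD5 209, 6 without PD5 210, 7 without SHR 215 and 5 without SHR 218, beside 5.86%, 7.07%, 6.52% and 7.14% of all genes. The count with an unadjusted p under 0.05 was 3 without SHR 218 and 3 without SHR 219, beside 6.49% and 5.01% of all genes.

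The intervals were narrow. For 42 of 43 members the 95% interval of the difference lay inside a 1.5-fold change in either direction (a log2 difference of 0.58), and for 22 of 43 inside a 1.2-fold change. The exception at 1.5-fold was Col8a1, whose interval reached -0.61. Of the 43 members, 15 lay above 0 and 28 below, with a median log2 difference of -0.04, while 8641 of all genes lay above 0 and 8668 below, with a median of 0.00. Without PD5 207 the members divided into 20 above and 23 below, with a median of -0.0060, and without SHR 218 the median was -0.07.

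**Figure D1:**
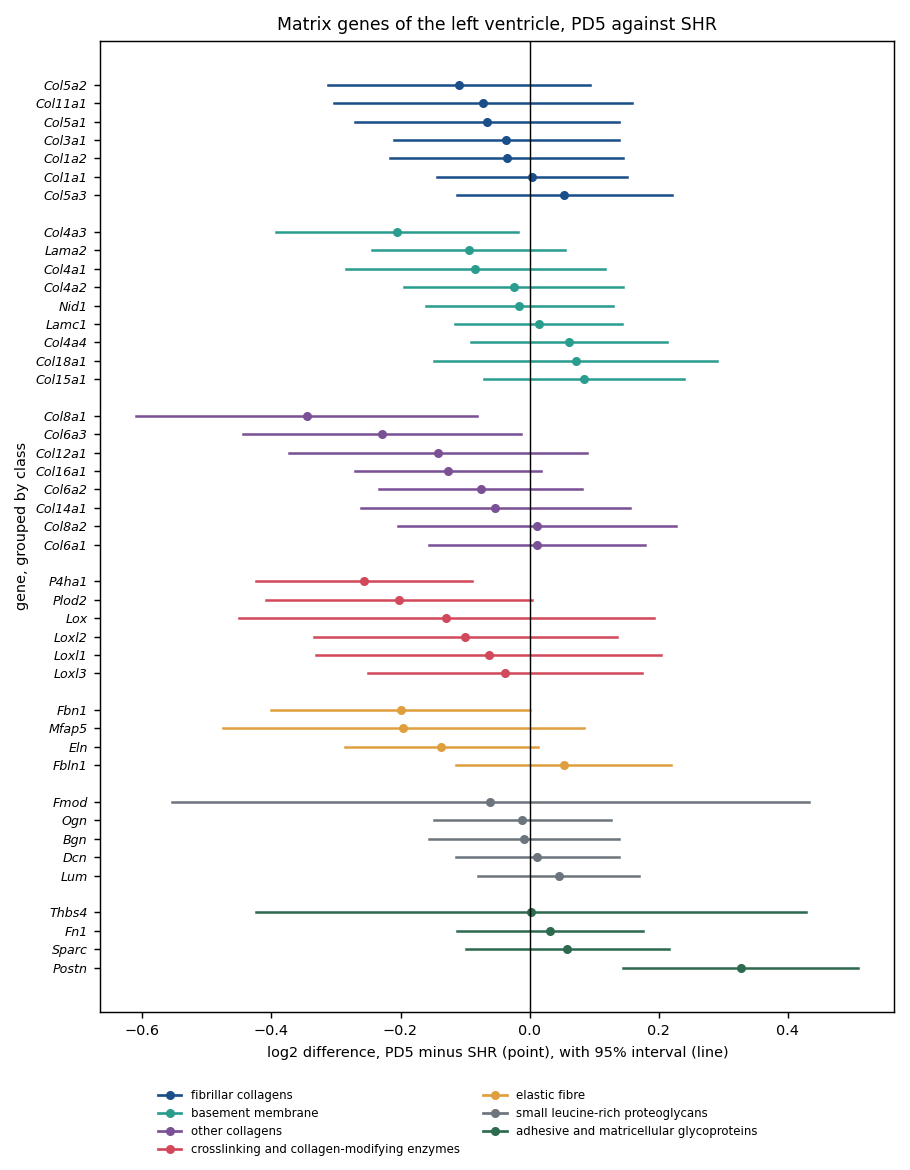
Log2 difference between PD5 and SHR for the 43 measured matrix genes, grouped by class, with points for the fitted difference and lines for the 95% interval (limma, 4 animals per strain). Postn is the only gene whose interval lies wholly above 0, and the intervals of P4ha1, Col8a1, Col4a3 and Col6a3 lie wholly below 0.

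The adhesive and matricellular glycoproteins lay above 0 in all 4 measured members, with a median of 0.04. That median was 0.034 without PD5 209, 0.10 without PD5 212, 0.071 without PD5 210 and 0.081 without SHR 219. Thbs4 kept its sign in 12 of 17 alternatives and Sparc in 16. These glycoproteins bind cells to collagen or tune how cells respond to it. Postn encodes periostin, a secreted protein that fibroblasts make in the growing and the injured heart and that assists collagen assembly. PD5 207, 209, 210 and 212 read 9.10, 8.91, 8.88 and 8.79 for Postn, while SHR 213, 215, 218 and 219 read 8.58, 8.56, 8.52 and 8.71. Every PD5 animal was higher than every SHR animal, with the closest approach between PD5 212 and SHR 219. PD5 averaged 8.92 ± 0.13 against 8.59 ± 0.08 for SHR (SD, n = 4 per strain). This 0.33 on the log2 scale (SE 0.08, 95% interval 0.14 to 0.51), 1.25-fold, had an adjusted p of 0.482 in limma. The adjusted p ranged from 0.0896 with a trended robust variance model to 0.926 with the brightest probe set, and the difference stayed between 0.27 and 0.38 over the 17 alternatives. All 24 probe sets of Postn lay above 0, from 0.035 to 0.68, and 5 of them had separate groups. Probe sets of a gene measure the same RNA samples and are not replicates.

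The start of the Postn gene is shown because it is the member with the lowest p. The stretch holds 250 bases before and 50 after the annotated start, read from RefSeq on the reference rat and not from either strain. Capitals mark the TATA box sequence TATAAA, present on either strand in 14.3% of the promoters in that table.
Postn promoter, chr2:140677811-140678110, + strand, GRCr8: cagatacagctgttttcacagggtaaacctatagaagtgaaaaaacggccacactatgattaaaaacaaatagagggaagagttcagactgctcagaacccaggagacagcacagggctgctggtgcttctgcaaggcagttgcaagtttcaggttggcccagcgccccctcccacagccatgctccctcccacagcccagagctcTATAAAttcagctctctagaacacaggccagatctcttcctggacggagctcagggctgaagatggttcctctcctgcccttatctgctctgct

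Fn1, which encodes fibronectin, the glycoprotein on which cells lay down early matrix, was at 9.45, 9.44, 9.46 and 9.35 in the PD5 animals and at 9.42, 9.36, 9.31 and 9.48 in the SHR animals, in the order given above, which is kept below. The groups overlapped and the difference was 0.03 (SE 0.06, 95% interval -0.11 to 0.18, adjusted p = 0.992 in limma). Sparc encodes osteonectin, a collagen-binding protein needed for mature collagen fibres in the mouse heart. It was at 12.53, 12.59, 12.48 and 12.55 in PD5 and at 12.43, 12.60, 12.51 and 12.36 in SHR, a difference of 0.06 (95% interval -0.10 to 0.22). SHR held both its lowest and its highest animal. Thbs4, which encodes a thrombospondin of muscle and tendon matrix, differed by 0.0024 with an interval from -0.42 to 0.43. That width came from the animals, with PD5 207 at 8.74 and PD5 212 at 7.83.

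The enzymes that modify and crosslink collagen lay below 0 in all 6 members, with a median of -0.11. That median was -0.022 without PD5 207 and -0.17 without SHR 218. P4ha1 encodes the catalytic subunit of prolyl 4-hydroxylase, which makes the hydroxyproline that holds the collagen helix together. It was at 9.30, 9.51, 9.44 and 9.59 in PD5 and at 9.65, 9.77, 9.70 and 9.74 in SHR. All PD5 animals were lower than all SHR animals, and PD5 207 was the lowest. PD5 averaged 9.46 ± 0.12 and SHR 9.71 ± 0.05 (SD, n = 4 per strain), a difference of -0.26 (SE 0.07, 95% interval -0.42 to -0.09, adjusted p = 0.598 in limma). Over the alternatives it ran from -0.30 to -0.16, the latter with the median of the probe sets, and its adjusted p from 0.159 to 0.922. All 14 of its probe sets lay below 0, between -0.54 and -0.11.

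Plod2 encodes a lysyl hydroxylase that prepares the ends of collagen for stable crosslinks. PD5 animals read 8.08, 8.27, 8.15 and 8.16 and SHR animals 8.24, 8.24, 8.39 and 8.60. The groups met at PD5 209, which was above SHR 213 and SHR 215, and SHR 219 was the highest. The difference was -0.20 (SE 0.09, 95% interval -0.41 to 0.0039, adjusted p = 0.873 in limma), and -0.13 without SHR 219. Of its 22 probe sets 20 lay below 0.

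P4ha1 and Plod2 were the enzyme genes with the smallest p, and neither passed in limma. Both are textbook targets of the hypoxia-inducible factors, but they were picked by p and not from a list of such targets. A part of these factors in the differences was not tested. The promoters of P4ha1 and Plod2 are shown because of their p, over the same window as above and from the same RefSeq table. Capitals mark the core of the hypoxia response element, searched as ACGTG and GCGTG on both strands.
P4ha1 promoter, chr20:27844796-27845095, + strand, GRCr8: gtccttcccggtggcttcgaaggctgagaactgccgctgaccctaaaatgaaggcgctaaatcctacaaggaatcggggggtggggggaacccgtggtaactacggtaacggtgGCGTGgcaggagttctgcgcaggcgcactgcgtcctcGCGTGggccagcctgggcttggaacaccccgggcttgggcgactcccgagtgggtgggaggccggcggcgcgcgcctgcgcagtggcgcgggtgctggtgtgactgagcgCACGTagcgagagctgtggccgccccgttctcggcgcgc
Plod2 promoter, chr8:101964068-101964367, + strand, GRCr8: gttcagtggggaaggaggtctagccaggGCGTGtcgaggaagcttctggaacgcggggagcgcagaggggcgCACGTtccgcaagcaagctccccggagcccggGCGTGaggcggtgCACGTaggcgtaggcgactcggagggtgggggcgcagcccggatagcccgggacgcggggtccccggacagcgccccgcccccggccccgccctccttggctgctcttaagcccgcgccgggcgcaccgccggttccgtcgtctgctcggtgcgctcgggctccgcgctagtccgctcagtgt
The P4ha1 window held 3 such cores and the Plod2 window 4. At least 1 core was found in 42.9% of all 27457 promoters of the table, at least 3 in 8.62% and at least 4 in 3.72%. Of the 35 members with a promoter in the table, 17 held at least 1 (48.6%). By core, ACGTG was in 3 of the 35 (8.57%), beside 19.7% of all promoters. GCGTG was in 16 of the 35 (45.7%), beside 31.1%. G and C made up 68.3% of the P4ha1 window and 73.7% of the Plod2 window. The shares of all promoters were not matched for this. The Postn window held 0. These cores are short letter matches and say nothing of binding in these hearts.

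Lox encodes lysyl oxidase, the main crosslinking enzyme of collagen and elastin. It was at 7.20, 7.71, 7.66 and 7.49 in PD5 and at 7.60, 7.47, 7.53 and 7.98 in SHR, so the groups overlapped widely. The difference of -0.13 (SE 0.14, 95% interval -0.45 to 0.19, adjusted p = 0.992 in limma) rested on a low PD5 207 and a high SHR 219. It was -0.023 without the former, -0.016 without the latter and -0.20 without PD5 209. The related oxidase genes differed by -0.10 for Loxl2, -0.06 for Loxl1 and -0.04 for Loxl3, with adjusted p from 0.989 to 0.992 in limma. Single animals moved all 3 values. Loxl2 was at -0.021 without PD5 207 and at -0.18 without SHR 218. Loxl1 turned to 0.018 without PD5 207 and was at -0.13 without PD5 209. Loxl3 was at -0.0011 without SHR 219 and at -0.12 without SHR 218.

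**Figure D2:**
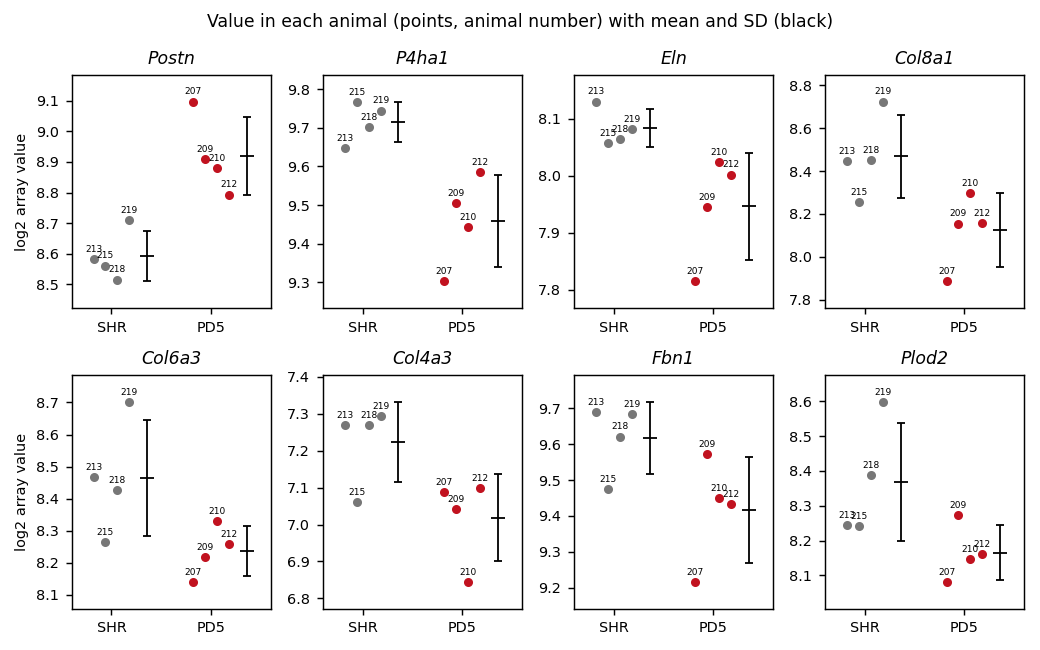
Log2 array value of 8 matrix genes in each animal (points with animal number, SHR grey and PD5 red), with the mean and SD of each strain in black and a separate axis per gene. Postn, P4ha1 and Eln have separate groups, and the other 5 genes overlap.

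The fibrillar collagens, which bear the tension of the myocardium, lay close to 0, with 2 members above, 5 below and a median of -0.04. The median turned to 0.017 without PD5 207 and was -0.068 without SHR 218. Col1a1 and Col1a2 encode the chains of type I collagen. Col1a1 was at 10.35, 10.51, 10.56 and 10.47 in PD5 and at 10.48, 10.41, 10.49 and 10.49 in SHR. The SHR values lay inside the PD5 range, and the difference was 0.0039 (SE 0.07, 95% interval -0.14 to 0.15, adjusted p = 0.997 in limma). The Col1a1 difference was 0.15 with the median of the probe sets and -0.065 with the brightest one. Col1a2 was at 10.44, 10.66, 10.74 and 10.59 in PD5 and at 10.64, 10.64, 10.54 and 10.74 in SHR, a difference of -0.04 (95% interval -0.22 to 0.15). In both genes PD5 207 was the lowest of the 8 animals.

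Col3a1, the chain of the more elastic type III collagen, was at 10.77, 11.01, 10.98 and 10.97 in PD5 and at 10.98, 10.95, 10.87 and 11.09 in SHR. Its difference was -0.04 (SE 0.08, 95% interval -0.21 to 0.14, adjusted p = 0.992 in limma). The balance of type I to type III collagen bears on how stiff the tissue is. Col1a1 minus Col3a1 within each array was -0.43, -0.50, -0.43 and -0.50 in PD5 and -0.49, -0.55, -0.38 and -0.59 in SHR, and only its change between the strains can be read. That change was 0.04 (two-sided exact permutation p = 0.514, with 0.0286 the smallest possible), and it was 0.21 with the median of the probe sets and -0.07 with the brightest one.

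Type V collagen starts and sizes the fibrils of types I and III. Col5a2 had the largest difference of the class, with 7.44, 7.65, 7.80 and 7.62 in PD5 and 7.71, 7.84, 7.61 and 7.79 in SHR, a difference of -0.11 (SE 0.09, adjusted p = 0.989 in limma). Without PD5 207, which was again the lowest, it was -0.05. Col5a1 was at 7.75, 7.80, 8.07 and 7.98 in PD5 and at 8.04, 7.92, 7.83 and 8.07 in SHR, a difference of -0.07 (SE 0.09). Col5a3 lay at 0.05 and Col11a1, best known from cartilage, at -0.07.

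The remaining collagens outside the basement membrane had the widest range, from -0.35 to 0.01, with 6 of 8 members below 0 and a median of -0.10, which was -0.066 without SHR 219. Col8a1 encodes a short-chain collagen of vessel walls that forms hexagonal networks. It was at 7.88, 8.15, 8.30 and 8.16 in PD5 and at 8.45, 8.26, 8.45 and 8.72 in SHR. Only PD5 210 and SHR 215 crossed, by 0.04 on the log2 scale. PD5 averaged 8.12 ± 0.17 and SHR 8.47 ± 0.19 (SD, n = 4 per strain). The gap of -0.35 (SE 0.12, 95% interval -0.61 to -0.08) had an adjusted p of 0.757 in limma. It lay between -0.42 and -0.26 over the alternatives. All 4 of its probe sets lay below 0, at -0.41, -0.40, -0.29 and -0.28. Its partner chain Col8a2 lay at 0.01, with values that overlapped throughout, and the difference between the partners was not tested.

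Type VI collagen forms beaded filaments around cells. Of its 3 chains, Col6a1 lay at 0.01, Col6a2 at -0.08 and Col6a3 at -0.23. Their 95% intervals overlapped, and the differences between the chains were not tested. Col6a3 was at 8.14, 8.22, 8.33 and 8.26 in PD5 and at 8.47, 8.26, 8.43 and 8.70 in SHR, where SHR 219 was the highest by a wide margin. Its difference (SE 0.10, 95% interval -0.44 to -0.01, adjusted p = 0.838 in limma) was -0.15 when SHR 219 was left out, and its brightest probe set alone gave 0.02. Of its 31 probe sets 28 lay below 0. Type XII, XIV and XVI collagens sit on the surface of fibrils: Col12a1 lay at -0.14, Col14a1 at -0.05 and Col16a1 at -0.13, with adjusted p from 0.914 to 0.992 in limma. For Col12a1 the brightest probe set gave 0.16, while leaving out SHR 219 gave -0.05 and leaving out SHR 218 gave -0.21.

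Basement membrane genes divided into 4 above and 5 below 0, with a median of -0.02. The median turned to 0.014 without PD5 207 and was -0.043 without SHR 218. Type IV collagen makes the sheet of the basement membrane. Col4a1 and Col4a2, its common chains, lay at -0.08 and -0.02. Col4a3, a chain best known from kidney and lung, was at 7.09, 7.04, 6.84 and 7.10 in PD5 and at 7.27, 7.06, 7.27 and 7.29 in SHR. SHR 215 lay among the PD5 animals and the other 3 SHR animals above them. The difference was -0.21 (SE 0.08, 95% interval -0.39 to -0.02, adjusted p = 0.822 in limma). It was -0.10 with the brightest probe set and -0.12 without both PD5 210 and SHR 219. Its partner Col4a4, which neighbours it in the genome, lay at 0.06, and at -0.24 with the brightest probe set.

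Lama2 encodes the laminin chain that ties muscle cells to their basement membrane. It was at 10.48, 10.61, 10.59 and 10.44 in PD5 and at 10.67, 10.56, 10.59 and 10.69 in SHR, a difference of -0.09 (SE 0.07, 95% interval -0.24 to 0.06, adjusted p = 0.978 in limma). Both strains had an animal near 10.6, and the lowest value was in PD5 212. Of the 54 Lama2 probe sets 1 lay at -2.08 and the next lowest at -0.38. Their median was -0.05, and the brightest probe set gave -0.02. Lamc1, a chain shared by most laminins, lay at 0.01 and Nid1, the linker between laminin and type IV collagen, at -0.02. Col15a1 and Col18a1, hybrids of collagen and proteoglycan around vessels and muscle cells, lay at 0.08 and 0.07. Adjusted p in limma was at least 0.989 for each of the genes of this class other than Col4a3 and Lama2.

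Elastic fibre genes lay below 0 in 3 of 4 measured members, with a median of -0.17, which was -0.10 without SHR 219. Fbn1 encodes fibrillin, the scaffold of elastic fibres. It was at 9.22, 9.57, 9.45 and 9.43 in PD5 and at 9.69, 9.47, 9.62 and 9.68 in SHR, with PD5 209 above SHR 215. The difference was -0.20 (SE 0.09, 95% interval -0.40 to 0.0014, adjusted p = 0.873 in limma). It was -0.13 without PD5 207, and 0.02 with the brightest probe set. Of its 53 probe sets 47 lay below 0.

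Eln encodes elastin, the recoiling core of the fibre. It was at 7.81, 7.95, 8.02 and 8.00 in PD5 and at 8.13, 8.06, 8.06 and 8.08 in SHR. The groups were separate, although PD5 210 came within 0.04 of the nearest SHR animal. The difference was -0.14 (SE 0.07, 95% interval -0.29 to 0.01, adjusted p = 0.903 in limma), and it was -0.43 with the brightest probe set. Mfap5, a microfibril protein that fibroblasts make, lay at -0.20 with all 11 probe sets below 0, yet SHR 219 at 9.55 stood above every other animal. Without SHR 219 the Mfap5 difference was -0.07. Fbln1, which binds elastin and fibronectin, lay at 0.05.

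The small leucine-rich proteoglycans, which coat collagen fibrils and set their width, had the smallest median of the classes in size, at -0.0088, with 2 members above and 3 below 0. It ran from -0.026 without PD5 209 to 0.019 without PD5 212. Dcn, for decorin, lay at 0.01, Bgn, for biglycan, at -0.0088 and Ogn, for osteoglycin, at -0.01, and the half-widths of their intervals were 0.13, 0.15 and 0.14. Lum, for lumican, was at 11.38, 11.35, 11.42 and 11.36 in PD5 and at 11.30, 11.35, 11.36 and 11.33 in SHR, a difference of 0.04 (SE 0.06, 95% interval -0.08 to 0.17, adjusted p = 0.992 in limma). Fmod, for fibromodulin, was the member with the largest spread among animals of a strain. It was at 7.89, 7.47, 7.60 and 6.995 in PD5 and at 7.46, 7.31, 7.34 and 8.10 in SHR. Its difference of -0.06 had an interval from -0.55 to 0.43, and its spread within strains (SD 0.37) exceeded that of 96.6% of all genes.

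**Figure D3:**
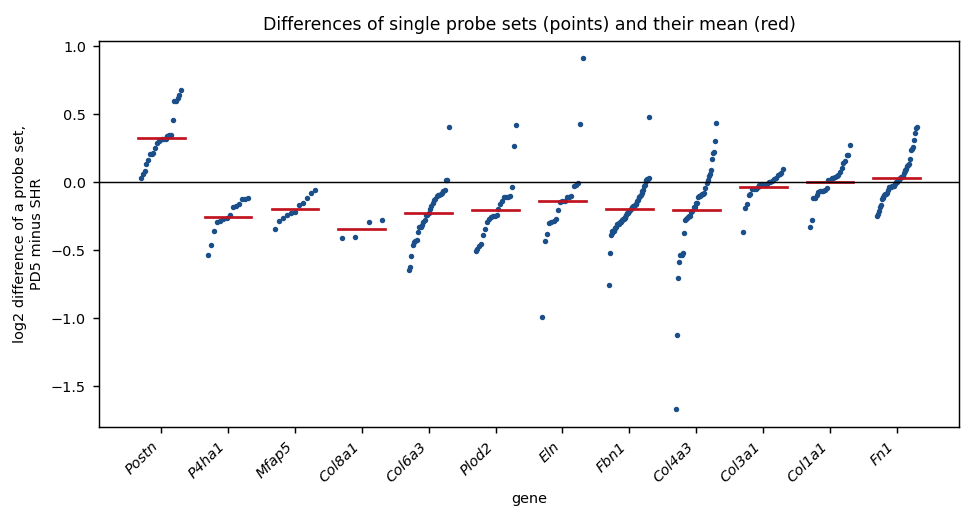
Log2 difference between PD5 and SHR for each probe set (points, sorted within a gene) of 12 matrix genes, with the mean in red. All probe sets of Postn lie above 0, all of P4ha1, Mfap5 and Col8a1 lie below 0, and those of Col1a1, Col3a1 and Fn1 lie on both sides.

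Single probe sets gave the same count of calls. The 43 members were covered by 1028 probe sets, of which 0 passed over all probe sets in limma, where 0.000908% of all probe sets did. At an unadjusted p under 0.05 there were 54, or 5.25%, beside 4.98% of all probe sets. Groups were separate in 36, or 3.50%, beside 2.87%. The lowest adjusted p was 0.551, for a Col16a1 probe set at 4.55, 4.47, 4.60 and 4.93 in PD5 and at 5.68, 5.75, 5.33 and 5.96 in SHR. That probe set, with a difference of -1.04, is named after its values were seen. The 44 probe sets of Col16a1 ranged from -1.92 to 1.05, with 24 above and 20 below 0. Of the 6 with an unadjusted p under 0.05, 5 lay below 0, as did 3 of the 4 with separate groups.

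Single animals stood apart within their strains. PD5 207 was the lowest of the 8 animals in 21 of 43 members, and SHR 219 was the highest in 15. In PD5 207, 10 members lay above the mean of its strain, where 49.6% of all genes did. In SHR 219 it was 31 members, where 51.8% of all genes did. That count alone did not single out SHR 219, since it was 30 in PD5 209 and 29 in PD5 210. Of all genes, 50% and 51.1% lay above the strain mean in those animals. In SHR 218 it was 14 members, beside 41.3% of all genes. How often an animal was the lowest or highest over all genes was not counted. The 5 members in which PD5 207 was instead the highest of all were Postn, Thbs4, Col11a1, Dcn and Fbln1. Averaged over all members, the deviation from the gene means was -0.09 in PD5 207 and 0.12 in SHR 219, and between -0.05 and 0.02 in the other 6.

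**Figure D4:**
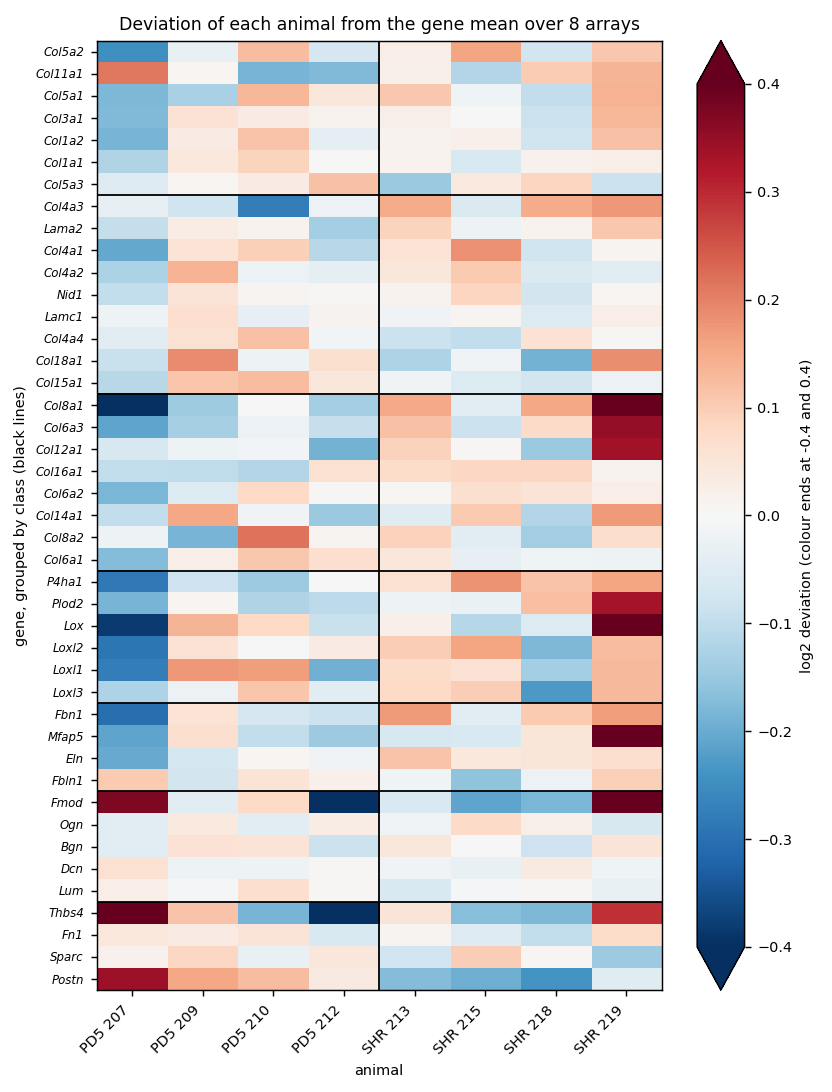
Deviation of each animal from the mean of a gene over 8 arrays, on a log2 scale from blue (lower) to red (higher), for the 43 matrix genes grouped by class. PD5 207 is low across most collagens and crosslinking enzymes and high in Postn, Thbs4 and Fmod, and SHR 219 is high in most rows.

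Markers of the cells that make matrix, and of tissues that can adhere to a heart, moved with some of these animals. Of the fibroblast markers 9 of 10 were measured, and their mean level ran from 8.48 to 8.58 in PD5 and from 8.48 to 8.68 in SHR, with SHR 219 the highest. For activated fibroblasts 6 of 8 were measured, with means from 7.34 to 7.56 in PD5 and from 7.39 to 7.57 in SHR, where PD5 207 was the lowest and SHR 219 the highest. In neither list did a gene pass in limma, and 0 of these genes had an unadjusted p under 0.05. Mesothelial and epicardial markers, all 7 measured, had means from 6.03 to 6.28 in PD5 and from 6.10 to 6.92 in SHR, with SHR 219 the highest. By gene, 0 of them lay above 0 and 7 below, from -0.59 to -0.05, with a median difference of -0.30. Adipocyte markers, all 8 measured, had means of 7.90 in PD5 210 and between 6.65 and 6.85 in the other 7 animals. PD5 210 was the highest animal in 6 of the 8 markers and the lowest in 1, Fabp4, at 9.85. Ucp1 stood furthest apart, at 9.05 in PD5 210 and between 3.79 and 4.83 in the other animals.

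Macrophage markers, all 7 measured, had separate means, from 8.16 to 8.18 in PD5 and from 8.28 to 8.53 in SHR. SHR 219 was again the highest. By gene, 6 lay below 0 and 1 above. Groups were separate in 1 of 7, Lyve1, beside 3.49% of all genes. The differences were -0.41 for Cd163, -0.40 for Lyve1 and -0.28 for Mrc1. They were smaller for C1qa (-0.11), Csf1r (-0.09), Adgre1 (-0.09) and Cd68 (0.05). Smooth muscle and pericyte markers (7 of 8) ranged from 9.51 to 9.61 in PD5 and from 9.50 to 9.60 in SHR, endothelial markers (6 of 8) from 10.03 to 10.12 and from 9.96 to 10.08, and Schwann cell markers (4 of 6) from 6.03 to 6.20 and from 5.86 to 6.11. Cardiomyocyte markers (7 of 8), which define the labelled tissue, lay between 12.53 and 12.62 in all 8 animals. Atrial markers (3 of 4) ranged from 9.74 to 10.58 in PD5 and from 8.65 to 10.97 in SHR. SHR 219 was the highest of the 8 animals in all 3 atrial markers and SHR 215 the lowest in all 3. In none of these marker lists did a gene pass in limma. An unadjusted p under 0.05 was found for 2 of 7 macrophage and 2 of 7 mesothelial markers. It was also found for 2 of 8 adipocyte and 1 of 6 endothelial markers, beside 5.68% of all genes. The smooth muscle, Schwann cell, cardiomyocyte and atrial lists had 0. Lyve1 had the lowest adjusted p of the macrophage list, 0.128 in limma, below the 0.482 of Postn. The part of these cells in the differences above was not tested. Among the differences, that of P4ha1 was -0.25 and that of Postn 0.37 without SHR 219, while those of Plod2, Col6a3, Col12a1, Mfap5 and Lox were smaller without it, as given above.

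**Figure D5:**
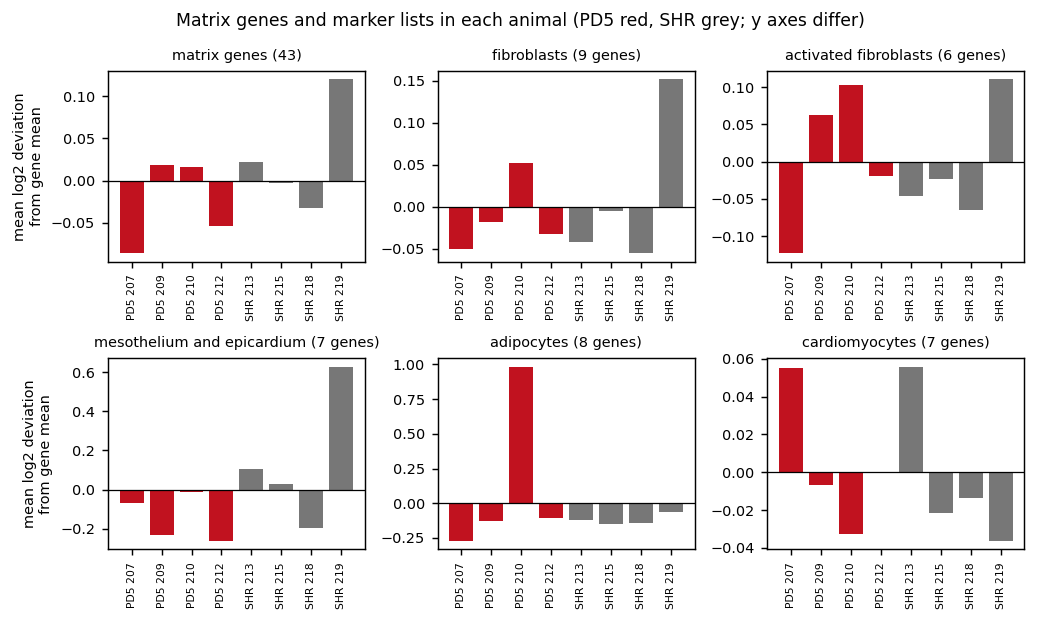
Mean log2 deviation from the gene means in each animal for the 43 matrix genes and for 5 marker lists (PD5 red, SHR grey, bars from 0, separate axes). SHR 219 has the highest bar for matrix genes, fibroblasts, activated fibroblasts and mesothelium, PD5 207 the lowest for matrix genes, and PD5 210 stands apart for adipocytes.

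Other genes of matrix assembly, uptake and adhesion, taken from a list of 66 with 58 measured, showed a like picture. In limma 0 of 58 passed over all genes, 1 had an unadjusted p under 0.05 on the higher side and 1 on the lower side, beside 2.77% and 2.91% of all genes, and the median was -0.02. The 3 with the smallest p were Lamc3, Lamb3 and Fbln2, and these 3 of 58 had separate groups, beside 3.49% of all genes. Lamc3, a laminin chain, was at 6.10, 6.24, 5.95 and 6.21 in PD5 and at 6.28, 6.41, 6.30 and 6.61 in SHR, a difference of -0.27 (SE 0.10, adjusted p = 0.775 in limma). Lamb3, a chain of epithelial laminin, lay at 0.17 (SE 0.07, adjusted p = 0.790). Fbln2, a fibulin of vessel walls and heart valves, lay at -0.13 (SE 0.06, adjusted p = 0.899).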

How the data were processed

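The authors deposited 1 table of log2 values for 220231 probe sets on 8 arrays. Partek 6.6 is the software listed in the submitters' processing notes. The labels do not state the background correction, the normalization or how probes were summarised. No scaling was added to the deposited log2 values, whose array medians ran from 6.93 to 6.98. A gene value was the mean of the probe sets that name that gene alone (166557 probe sets, 17309 genes, median 8 per gene). Symbols were updated through the GRCr8 gene table: 14377 were current, 2837 were replaced and 95 had no match.

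PD5 was compared with SHR in limma 3.58.1 (R 4.3.3; lmFit and eBayes). Tests were two-sided, p-values were adjusted by Benjamini-Hochberg across the 17309 genes, and dim genes were kept. Alternatives changed the probe set summary, the filter, the scaling, the variance model or the arrays included. The functions were tested on simulated data. The strains share no animal number, and no pairing was used. Members, classes and lists were chosen with earlier results of these data known, so no set test was run. Named genes were all measured members, with values per animal for the 2 of smallest p in each class and for Col1a1, Col1a2, Col3a1, Fn1, Lox, Postn, Sparc and Eln, and up to 3 of the further list. Thbs4, single values of other members, Mfap5 among them, and the single macrophage and adipocyte markers were added after their values were seen. Animals of a strain are replicates per the labels, which name no litter. The number of arrays limits the precision. Promoters came from RefSeq (GRCr8), where 35 of 47 members had an entry.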

Additional observations from a re-analysis of the deposited data

Results flagged for a closer look

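In 5 of 86 groups of 4 animals (43 members in 2 strains) 1 animal stood far from the other 3, by a gap to its nearest neighbour above the 95% critical value of Dixon's test. Chance flags about 1 in 20 groups, and 5.81% were flagged here. The SHR group held 4 of them: Col1a1 in SHR 215 at 10.41, with the others from 10.48 to 10.49, Col4a3 in SHR 215 at 7.06 (others 7.27 to 7.29), Col16a1 in SHR 219 at 6.02 (others 6.08 to 6.09) and Loxl3 in SHR 218 at 6.95 (others 7.26 to 7.31). In PD5 it was Col16a1 in PD5 212, at 6.07 with the others from 5.89 to 5.91.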

How the results depend on the processing

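Of 43 members, 0 passed over all genes under any of the 17 alternatives run. The count over all genes was less stable: 9 as reported, 0 with the brightest probe set, 0 with no moderation, 47 with a trended robust variance model, 0 without both PD5 210 and SHR 219, and from 1 to 7 with any one array left out (1 without PD5 210 or SHR 218, 2 without PD5 207, 3 without SHR 219, 4 without PD5 212 or SHR 213, 5 without PD5 209). Members with separate groups numbered 1 with the brightest probe set (2.82% of all genes), 7 without both PD5 210 and SHR 219 (10.3% of all genes), and 3 to 7 with one array left out (5.74% to 7.14% of all genes). Fewer arrays separate more easily by construction. Members with an unadjusted p under 0.05 numbered 3 without both of those arrays (5.28% of all genes) and 3 to 7 with one array left out (5.01% to 6.49% of all genes). The median over members lay between -0.070 and -0.0060 in every alternative run. Among the 17 alternatives, 19 members kept their sign in all, Postn, P4ha1, Col8a1, Col4a3, Plod2 and Eln among them. The sign turned with the brightest probe set for Col12a1 (0.16), Col1a1 (-0.065), Col1a2 (0.0075), Col4a4 (-0.24), Col5a3 (-0.065), Col6a3 (0.018), Fbln1 (-0.04), Fbn1 (0.022), Lamc1 (-0.15), Loxl1 (0.013), Loxl3 (0.015), Nid1 (0.043), Ogn (0.0025), Sparc (-0.025) and Thbs4 (-0.058), with the median of the probe sets for Col6a2 (0.13) and Fbln1 (-0.013), with the dimmest probe sets left out for Col4a4 (-0.018), and without both PD5 210 and SHR 219 for Col11a1 (0.012), Col1a1 (-0.017), Col6a1 (-0.026), Col8a2 (-0.034) and Fmod (0.086). With one array left out the sign turned for Bgn (-0.038 to 0.019), Col1a1 (-0.025 to 0.044), Col1a2 (-0.079 to 0.020), Col3a1 (-0.071 to 0.017), Col4a2 (-0.075 to 0.013), Col6a1 (-0.022 to 0.072), Col8a2 (-0.059 to 0.075), Dcn (-0.006 to 0.026), Fmod (-0.20 to 0.12), Lamc1 (-0.0062 to 0.028), Loxl1 (-0.13 to 0.018), Nid1 (-0.043 to 0.014), Ogn (-0.035 to 0.012) and Thbs4 (-0.16 to 0.14). The value of Col1a1 minus Col3a1 within an array, PD5 minus SHR, turned to -0.065 with the brightest probe set and to -0.00188 without both arrays, and it ran from 0.0099 to 0.081 with one left out. The causes were not tested. No paired analysis was possible because the strains share no animal number. The deposited values hold no signal over background, so how far dim probe sets lie above it is not known.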

Other observations

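Members that lie next to each other in the GRCr8 gene table, with no protein-coding gene between them, were Col4a1 and Col4a2 (-0.08 and -0.02), Col4a3 and Col4a4 (-0.21 and 0.06), Col6a1 and Col6a2 (0.01 and -0.08), Col3a1 and Col5a2 (-0.04 and -0.11), and Dcn and Lum (0.01 and 0.04). Of the 47 members, 4 lie on the chromosome of Zbtb16, a gene known, outside these data, to lie in the introduced segment of this strain. They are Col5a3 at 0.05, Col12a1 at -0.14, Loxl1 at -0.06 and Plod2 at -0.20, and none of these passed in limma.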
